A study of Mus musculus with 21 samples.

Results

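The genes described here are 30 genes of cholesterol synthesis, uptake and efflux, measured by RNA sequencing in microglia of the mouse striatum, a forebrain region. They were chosen by name as a module of sterol metabolism, by symbols mapped to the table's Ensembl identifiers. Earlier results of these data were known when the list was made. All 30 were among the 55487 genes of the deposited table, and all 30 were among the 14741 genes that passed the filter on low counts. Microglia, the resident macrophages of the brain, were sorted as live, CD11b positive, CD45 low, P2RY12 positive cells from male mice 8 to 10 weeks old. The mice were offspring of dams with maternal immune activation (MIA) or of control dams; the sources used here do not say how MIA was induced or which strain was used. Adult offspring received bacterial lipopolysaccharide (LPS), a ligand of Toll-like receptor 4, at 4500 endotoxin units per gram by intraperitoneal injection, or saline, and cells were collected 18 hours later. The batch 1 libraries comprised 3 MIA LPS, 5 MIA saline, 5 control LPS and 6 control saline libraries. Replicate 4 of MIA LPS was the only library of batch 2, and replicate 6 of MIA saline was titled as excluded; neither sets a contrast below. All mice were male and all libraries came from a sort that selects on P2RY12.

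Cells obtain cholesterol by making it from acetyl-CoA through the mevalonate pathway or by taking up lipoproteins. When sterols in the endoplasmic reticulum are low, the carrier SCAP takes the transcription factor SREBP2 (gene Srebf2) to the Golgi for cleavage, and SREBP2 then raises the genes of synthesis and uptake; INSIG1 and INSIG2 hold SCAP back when sterols are plentiful. When oxysterols accumulate, the nuclear receptors LXR alpha and LXR beta (Nr1h3 and Nr1h2) raise genes of efflux, such as Abca1 and Abcg1, and Mylip, a ubiquitin ligase that removes lipoprotein receptors. In macrophages, cholesterol 25-hydroxylase (Ch25h) makes an oxysterol that restrains SREBP processing and is known as an interferon-induced gene.

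The promoter sequences below are shown because SREBP2 and LXR act through short DNA elements near the start of these genes. They are RefSeq windows of 300 bases, 250 before and 50 after an annotated start, in build GRCm38.p6, printed 5′ to 3′ on the strand of the gene. In the first window, of Hmgcs1, the HMG-CoA synthase gene, capitals mark the letters TCACNCCAC of a sterol regulatory element. In the windows of Pmvk and Hsd17b7, the 2 synthesis enzymes with the largest LPS responses, capitals mark CCAAT or its complement, the core letters of NF-Y, a factor that works beside SREBP2. In the windows of Abca1 and Srebf1, capitals mark GGTNA and GGTCA with 5 bases of any kind between them, or the complement, the letters of a direct repeat (DR4) of the kind bound by LXR.
Hmgcs1, chr13:119690101-119690400, plus strand: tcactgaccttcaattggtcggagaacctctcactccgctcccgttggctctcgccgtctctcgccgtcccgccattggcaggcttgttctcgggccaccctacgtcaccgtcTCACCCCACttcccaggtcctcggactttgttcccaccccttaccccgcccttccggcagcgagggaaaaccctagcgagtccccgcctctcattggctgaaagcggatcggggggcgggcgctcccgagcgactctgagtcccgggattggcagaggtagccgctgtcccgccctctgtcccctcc
Pmvk, chr3:89454291-89454590, plus strand: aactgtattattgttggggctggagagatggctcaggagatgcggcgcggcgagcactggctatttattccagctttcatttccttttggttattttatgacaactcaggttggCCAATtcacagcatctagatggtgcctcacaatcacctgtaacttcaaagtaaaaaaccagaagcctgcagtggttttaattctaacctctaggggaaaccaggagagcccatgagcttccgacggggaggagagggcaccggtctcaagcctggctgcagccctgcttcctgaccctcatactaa
Hsd17b7, chr1:169969156-169969455, minus strand: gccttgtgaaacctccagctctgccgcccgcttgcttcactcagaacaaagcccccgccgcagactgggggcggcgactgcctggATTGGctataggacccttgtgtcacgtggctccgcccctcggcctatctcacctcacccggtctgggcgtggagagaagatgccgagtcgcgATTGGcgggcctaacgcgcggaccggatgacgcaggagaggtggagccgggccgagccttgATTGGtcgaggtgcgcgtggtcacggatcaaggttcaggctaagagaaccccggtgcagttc
Abca1, chr4:53159846-53160145, minus strand: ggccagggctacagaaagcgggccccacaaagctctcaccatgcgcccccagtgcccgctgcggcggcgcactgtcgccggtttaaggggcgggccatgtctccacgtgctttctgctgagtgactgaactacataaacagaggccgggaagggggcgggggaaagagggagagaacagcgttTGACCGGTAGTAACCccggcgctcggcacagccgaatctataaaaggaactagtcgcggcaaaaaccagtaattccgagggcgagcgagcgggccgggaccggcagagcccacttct
Srebf1, chr11:60210422-60210721, minus strand: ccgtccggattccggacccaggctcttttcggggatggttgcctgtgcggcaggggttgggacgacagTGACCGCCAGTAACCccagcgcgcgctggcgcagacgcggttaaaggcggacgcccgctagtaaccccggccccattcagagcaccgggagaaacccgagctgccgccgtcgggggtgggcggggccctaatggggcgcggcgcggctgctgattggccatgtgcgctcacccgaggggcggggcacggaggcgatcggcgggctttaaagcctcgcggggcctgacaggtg

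Windows were found for 25 of the 30 genes, as 34 windows. The letters TCACNCCAC, searched on both strands, were in the window of Hmgcs1, 1 of 15 SREBP2 target genes with a window. They were in windows of 1.44% of all 27025 genes with a window. The letters CCAAT, on either strand, were in windows of 14 of those 15 genes, against 41.1% of all 27025 genes with a window. The DR4 letters were written with the Abca1 window in view, so the match there was fixed by that choice; they were also in a window of Srebf1, and in windows of 0.226% of all genes. No match of one of these patterns overlapped a match of another. A match is a description of the sequence, and a missing match says only that these letters are not in this window.

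Levels are given as CPM, counts per 1e+06 counts of a library, after scaling the libraries to each other by the trimmed mean of M values (TMM). The levels of cell type marker lists, summed over genes, are an exception: they are CPM of the library total without TMM scaling. They are therefore not on quite the same scale as the averages of single genes. The fitted batch 1 libraries held 9.85 to 19.0 M counts (M, 1e+06), of which 43.0% to 53.8% fell on 1 gene. The sort markers and microglial genes were present in every group: the summed level of 8 such genes was 3953 to 5956 CPM in MIA LPS, 10747 to 15171 in MIA saline, 4799 to 6358 in control LPS and 11375 to 15090 in control saline libraries, and 5 of the 8 fell after LPS in each maternal group. The sort marker P2ry12 averaged 203 CPM in MIA LPS, 2050 in MIA saline, 188 in control LPS and 1974 in control saline libraries. In the same order Itgam, which encodes CD11b, averaged 313, 321, 293 and 295 CPM. Ptprc, which encodes CD45, averaged 267, 303, 246 and 292 CPM. Of 7 monocyte markers, 6 rose and 1 fell after LPS in each maternal group, with summed levels of 37.4 to 55.5 CPM in MIA LPS, 3.15 to 6.79 in MIA saline, 42.9 to 78.9 in control LPS and 4.01 to 5.98 in control saline libraries. Ly6c2, which marks inflammatory monocytes, averaged 2.41 CPM in MIA LPS, 0 in MIA saline, 6.11 in control LPS and 0.0777 in control saline libraries. Ccr2, another marker of these monocytes, was the 1 that fell. It averaged 0.601 CPM in MIA LPS, 2.84 in MIA saline, 1.30 in control LPS and 2.93 in control saline libraries. Neutrophil markers summed to 88.1 to 176 CPM in MIA LPS, 171 to 214 in MIA saline, 124 to 177 in control LPS and 164 to 210 in control saline libraries; 8 of 9 tested rose and 1 fell in MIA offspring, and 6 rose and 1 fell in control offspring. Most of that sum in saline libraries was Csf3r. With TMM scaling it averaged 57.4 CPM in MIA LPS, 184 in MIA saline, 71.0 in control LPS and 180.2 in control saline libraries. Of the oligodendrocyte, astrocyte, neuron, border-associated macrophage and endothelial markers tested, 2 rose and 4 fell in MIA offspring, and 2 rose and 4 fell in control offspring. Both directions occurred within a list: of 5 astrocyte markers tested, 1 rose and 1 fell in each maternal group. Of 7 border-associated macrophage markers, 1 rose and 2 fell in MIA offspring, and 1 rose and 1 fell in control offspring. Slc1a3 made up most of the astrocyte sum in saline libraries on average. It averaged 93.4 CPM in MIA LPS, 169 in MIA saline, 93.9 in control LPS and 191 in control saline libraries. Within its group the library MIA LPS 2 stood apart, with 226 CPM of astrocyte and 93.4 CPM of oligodendrocyte markers, against 115 and 117 CPM, and 39.0 and 49.0 CPM, in the other MIA LPS libraries of batch 1. MIA saline libraries held 159 to 282 CPM of astrocyte and 40.7 to 84.3 CPM of oligodendrocyte markers. MIA saline 3 and 4, whose labels share a second identifier number with MIA LPS 2, had 282 and 254 CPM, and 84.3 and 75.5 CPM. Without MIA LPS 2 the number of members called in MIA offspring was 14, all of them higher. The part of these cell types in the values below was not tested, and in bulk samples fewer cells of a type and less RNA per cell cannot be told apart.

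Per kilobase of exon, the efflux and uptake genes stood far above the synthesis enzymes in unstimulated microglia. In control saline libraries Mylip averaged 46.5 ± 2.69 CPM per kilobase, Abca1 39.8 ± 3.97, Abcg1 21.9 ± 4.89 and Soat1, which esterifies cholesterol for storage, 8.08 ± 0.704 (SD, n = 6), and each stood above the next in that order by more than either SD. Insig2 (6.21 ± 0.677), Nr1h2 (5.48 ± 1.43), Ebp (5.08 ± 1.16) and Insig1 (3.92 ± 0.799) followed, with neighbours that did not differ beyond their spread. Hmgcs1, at 3.77 ± 0.695 CPM per kilobase, was the highest enzyme of the mevalonate arm. Lss (0.338 ± 0.0721), Hsd17b7 (0.206 ± 0.127), Sqle (0.191 ± 0.0772), Nr1h3 (0.174 ± 0.121), Stard4 (0.158 ± 0.125) and Ch25h (0.129 ± 0.131) were lowest, and below Lss no neighbour differed from the next beyond its spread. The length used joins all annotated exons of a gene, 10.8 kilobases for Lss and 10.4 for Abca1, so the order depends on annotation. In CPM, Lss averaged 3.64 in control saline libraries, above Nsdhl (3.31), Idi1 (2.66), Acat2 (2.38), Mvd (1.72) and Mvk (1.34).

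Part of the module was higher after LPS in both maternal groups. In MIA offspring 12 of the 30 genes rose and 2 fell, which is 46.7% called, where 39.1% of all 14741 genes were called (adjusted p under 0.05, edgeR's quasi-likelihood test with Benjamini-Hochberg adjustment over all genes); 20.8% of all genes were called higher and 18.3% lower. In control offspring 14 rose and 2 fell, 53.3% of the members, where 44.6% of all genes were called, 23.3% higher and 21.3% lower. The share of members called was thus near that of all genes, while their split was mostly upward. The median log2 fold change, LPS over saline, was 0.48 for the members and 0.02 for all genes in MIA offspring, and 0.51 for the members and 0.00 for all genes in control offspring. Of the genes called, 11 were called in both maternal groups, in the same direction each time: 78.6% of the MIA calls and 68.8% of the control calls. These contrasts share no library, but they come from the same fit and share its estimate of the spread. For all genes tested the shared calls were 85.5% of the MIA calls and 74.9% of the control calls, and all 4930 had the same direction too. The LPS and saline libraries did not overlap for 13 members in MIA offspring, where 36.5% of all genes did not overlap: 12 members were higher (18.5% of all genes) and 1 lower (18% of all genes). In control offspring they did not overlap for 11 members, where 28.9% of all genes did not: 9 were higher (15.1% of all genes) and 2 lower (13.9% of all genes).

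**Figure D1:**
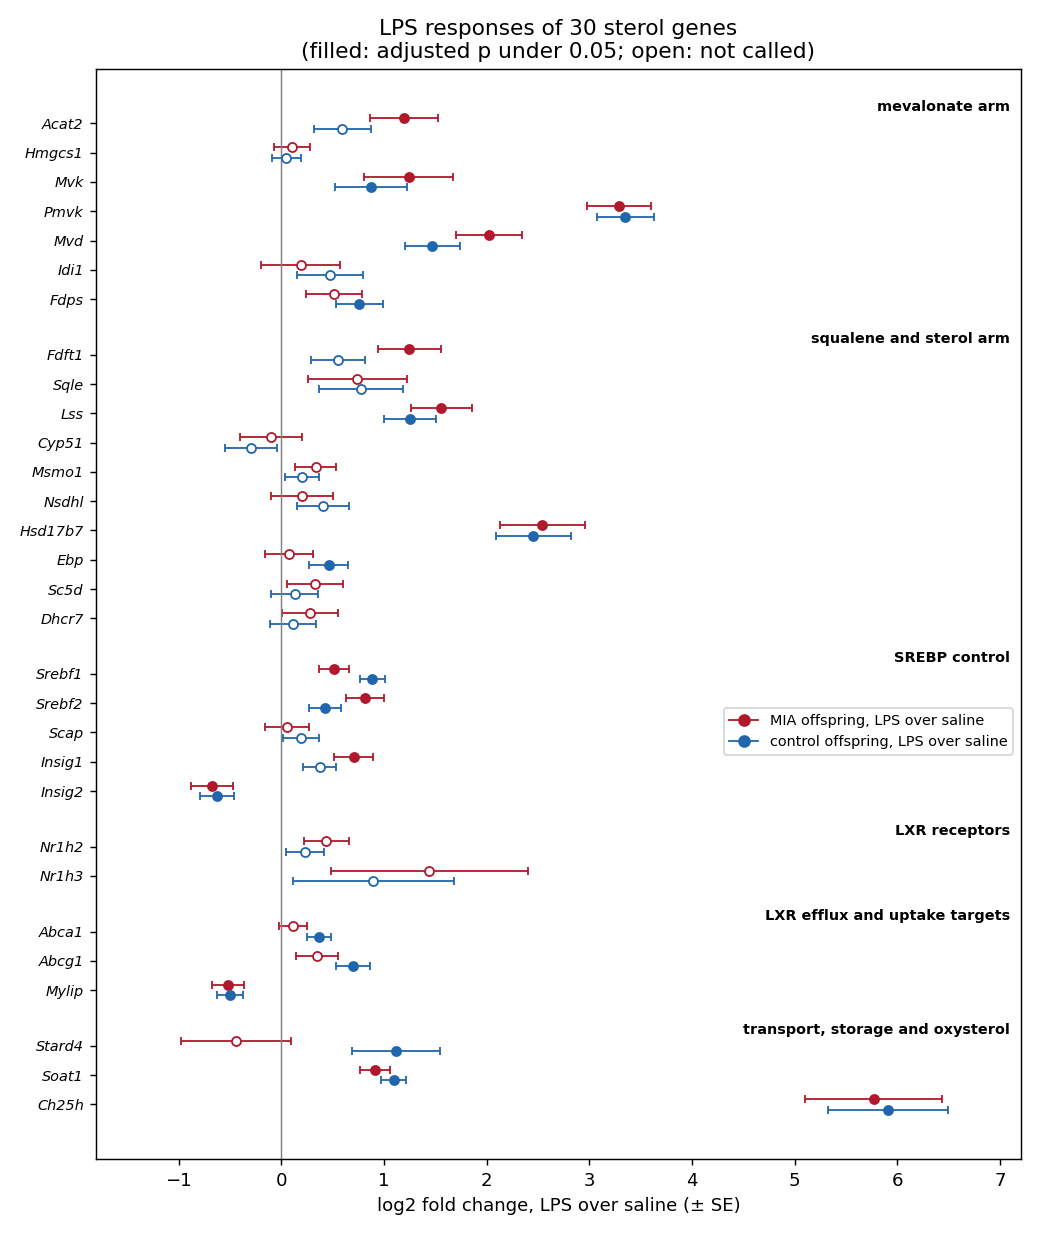
Log2 fold change, LPS over saline, with its standard error, for each of the 30 genes by role, in MIA (red) and control (blue) offspring; filled points passed adjusted p under 0.05. Pmvk, Hsd17b7 and Ch25h lie to the right of all others in both maternal groups, Insig2 and Mylip lie left of 0 in both, and Hmgcs1 lies near 0.

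The mevalonate arm turns acetyl-CoA units into farnesyl diphosphate. Of its 7 enzymes, 4 rose and none fell in each maternal group and 3 were not called, with a median log2 fold change of 1.19 in MIA and 0.76 in control offspring. That is 57.1% called, where 39.1% of all genes were called in MIA and 44.6% in control offspring. Pmvk, phosphomevalonate kinase, gave the largest response of the 17 synthesis enzymes. It had 28.5, 39.2 and 46.3 CPM in the 3 MIA LPS libraries, against 3.42, 4.26, 3.65, 4.41 and 3.66 CPM in the 5 MIA saline libraries. The 5 control LPS libraries had 28.3, 67.1, 16.2, 48.0 and 54.6 CPM, against 2.92 to 6.06, with a median of 4.16 CPM in control saline libraries. Every LPS library was above every saline library, and the control LPS libraries spread over more than the MIA LPS ones. The log2 fold change was 3.29 ± 0.32 (SE; adjusted p = 2.46e-08) in MIA and 3.35 ± 0.27 (adjusted p = 1.12e-09) in control offspring, a 9.78-fold and a 10.2-fold difference.

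Mvd, mevalonate diphosphate decarboxylase, acts directly after Pmvk. Its levels were 5.83, 5.14 and 3.76 CPM in MIA LPS libraries, against 2.02, 1.29, 0.945, 0.964 and 0.866 CPM in MIA saline libraries. In control LPS libraries they were 4.06, 5.89, 3.84, 6.10 and 4.09 CPM, against 0.921 to 2.31, with a median of 1.72 CPM in control saline libraries. Again no LPS library overlapped the saline libraries, and the log2 fold change was 2.02 ± 0.33 (adjusted p = 1.71e-05) in MIA and 1.47 ± 0.27 (adjusted p = 6.73e-05) in control offspring. Mvk, mevalonate kinase, which acts before Pmvk, averaged 2.05 ± 0.614 CPM in MIA LPS and 0.862 ± 0.197 in MIA saline libraries (SD, n = 3 and 5), a log2 fold change of 1.24 ± 0.44 (adjusted p = 0.0261). It averaged 2.44 ± 0.862 CPM in control LPS and 1.34 ± 0.654 in control saline libraries (SD, n = 5 and 6), a log2 fold change of 0.87 ± 0.35 with an adjusted p of 0.047, and this control call held in 9 of 31 alternative settings, the MIA call in 25 of 31.

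Fdps, farnesyl diphosphate synthase, had 16.7, 6.15 and 14.4 CPM in MIA LPS libraries, against 10.6, 11.1, 8.24, 6.81 and 6.79 CPM in MIA saline libraries. Its levels were 13.5, 13.4, 14.3, 13.7 and 11.7 CPM in control LPS libraries, against 4.03 to 11.5, with a median of 7.93 CPM in control saline libraries. All control LPS libraries lay above all control saline libraries, a log2 fold change of 0.76 ± 0.23 (adjusted p = 0.00803); in MIA offspring the library MIA LPS 2 lay below every MIA saline library and the log2 fold change was 0.52 ± 0.27 (adjusted p = 0.14). Without MIA LPS 2 the MIA value was 0.84 (adjusted p = 0.00868). Acat2, which joins 2 acetyl-CoA at the head of the pathway, passed the test in MIA offspring and not in control offspring, and the difference of its responses was not called (adjusted p = 1). It averaged 4.31 ± 1.21 CPM in MIA LPS and 1.88 ± 0.514 CPM in MIA saline libraries, a log2 fold change of 1.19 ± 0.33 (adjusted p = 0.00543). In control offspring it averaged 3.61 ± 0.640 CPM after LPS and 2.38 ± 0.828 CPM after saline, a log2 fold change of 0.60 ± 0.28 (adjusted p = 0.0829). The mouse genome holds a close copy, Acat3, so counts of Acat2 are uncertain to that extent, and Fdps shares 26.7% of its exon bases with another annotated gene, Gm43738.

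Hmgcs1, HMG-CoA synthase, a textbook SREBP2 target and the gene whose promoter window holds the sterol element printed above, did not pass the test. Its libraries had 18.8, 20.8 and 21.8 CPM in MIA LPS, against 21.6, 20.3, 15.7, 20.7 and 17.1 CPM in MIA saline, and 15.9, 21.8, 16.3, 20.6 and 15.0 CPM in control LPS, against 14.5 to 22.9, with a median of 16.4 CPM in control saline. The groups overlapped in both comparisons. The log2 fold change was 0.10 ± 0.17 with a 95% interval of −0.25 to 0.46 in MIA offspring (adjusted p = 0.674), and 0.05 ± 0.14 with an interval of −0.24 to 0.35 in control offspring (adjusted p = 0.807). Idi1, isopentenyl diphosphate isomerase, also overlapped, at 2.03 to 4.41 CPM in MIA LPS and 1.82 to 4.68 CPM in MIA saline libraries, and 2.40 to 4.88 CPM in control LPS and 1.34 to 3.99 CPM in control saline libraries. Its log2 fold changes of 0.19 ± 0.39 in MIA and 0.47 ± 0.32 in control offspring did not pass the test (adjusted p = 0.738 and 0.241).

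**Figure D2:**
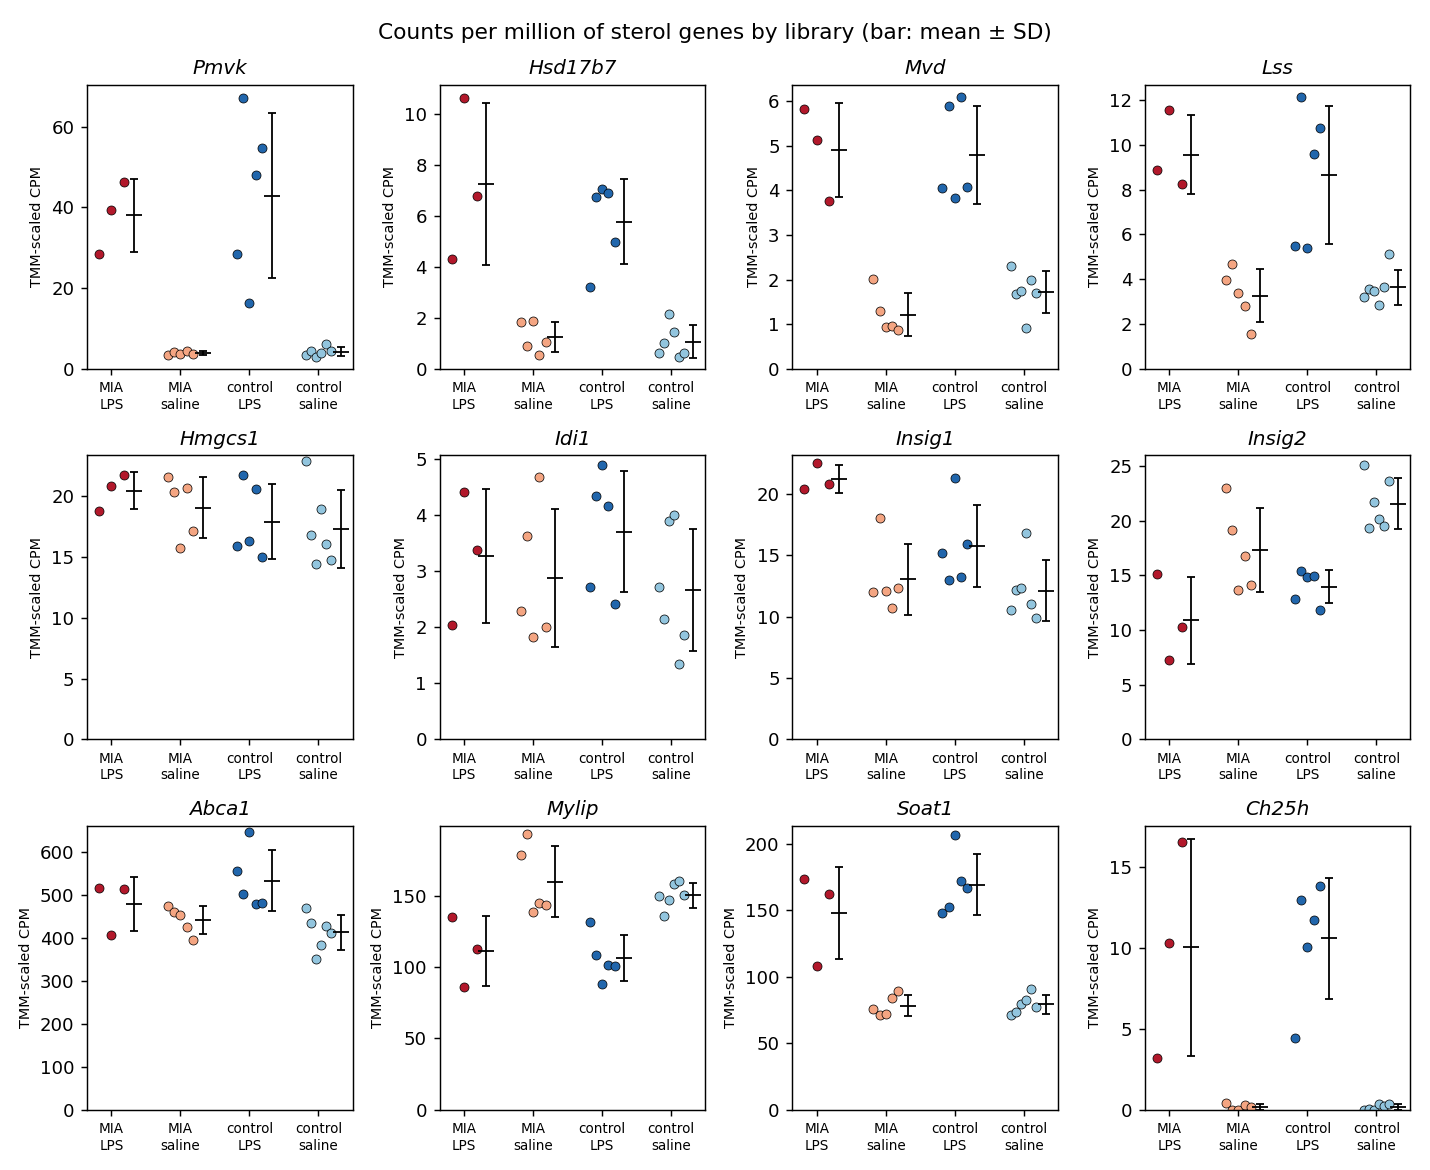
TMM-scaled CPM of 12 genes in each of 19 batch 1 libraries, 1 point a library, with the mean ± SD beside each group (MIA LPS n = 3, MIA saline n = 5, control LPS n = 5, control saline n = 6); all axes start at 0. LPS libraries lie above all saline libraries for Pmvk, Hsd17b7, Mvd, Lss, Soat1 and Ch25h, while Hmgcs1 and Idi1 overlap.

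The squalene and sterol arm joins farnesyl units to squalene, closes the rings and trims lanosterol to cholesterol. Of its 10 enzymes, 3 rose and none fell in each maternal group, with a median log2 fold change of 0.33 in MIA and 0.43 in control offspring. The 30% called was below the share of all genes, 39.1% in MIA and 44.6% in control offspring. Of all genes, 20.8% were called higher in MIA and 23.3% in control offspring. Hsd17b7, which reduces a sterol ketone during removal of methyl groups, had 4.31, 10.6 and 6.80 CPM in MIA LPS libraries, against 1.84, 0.884, 1.89, 0.551 and 1.07 CPM in MIA saline libraries. It had 3.20, 6.73, 7.06, 6.90 and 4.97 CPM in control LPS libraries, against 0.466 to 2.15, with a median of 0.812 CPM in control saline libraries. No LPS library overlapped the saline libraries. Hsd17b7 rose by a log2 fold change of 2.54 ± 0.41 (adjusted p = 2.1e-05) in MIA and 2.46 ± 0.36 (adjusted p = 3.83e-06) in control offspring.

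Lss, lanosterol synthase, closes the sterol rings. Its levels were 8.88, 11.6 and 8.25 CPM in MIA LPS libraries, against 3.94, 4.66, 3.38, 2.82 and 1.53 CPM in MIA saline libraries. They were 5.47, 12.1, 5.40, 9.58 and 10.7 CPM in control LPS libraries, against 2.84 to 5.11, with a median of 3.51 CPM in control saline libraries. The groups did not overlap, and 2 of the 5 control LPS libraries lay close to the highest saline library. Lss rose by a log2 fold change of 1.56 ± 0.30 (adjusted p = 0.000147) in MIA and 1.25 ± 0.25 (adjusted p = 0.000192) in control offspring. Fdft1, squalene synthase, averaged 10.2 ± 3.87 CPM in MIA LPS and 4.30 ± 1.30 in MIA saline libraries, a log2 fold change of 1.25 ± 0.31 (adjusted p = 0.00203). In control offspring it averaged 6.69 ± 1.46 CPM after LPS and 4.54 ± 1.80 after saline, a log2 fold change of 0.55 ± 0.26 (adjusted p = 0.0877), and 0.73 (adjusted p = 0.0247) without control saline 5. Fdft1 shares 18.3% of its exon bases with Ctsb on the opposite strand; no source used here states whether the counting used strand, so reads of the 2 genes may not be told apart there.

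Ebp, the sterol isomerase, had 16.3, 7.45 and 13.9 CPM in MIA LPS libraries, against 11.2, 15.2, 10.5, 11.4 and 11.2 CPM in MIA saline libraries, a log2 fold change of 0.08 ± 0.23 (adjusted p = 0.827). MIA LPS 2 lay below every MIA saline library; the value was 0.34 (adjusted p = 0.228) without it and −0.15 (adjusted p = 0.679) without MIA LPS 1. In control offspring it averaged 16.2 ± 3.02 CPM after LPS and 11.7 ± 2.68 CPM after saline, a log2 fold change of 0.46 ± 0.19 with an adjusted p of 0.0478 that held in 9 of 32 alternative settings. The other 6 enzymes were not called in either maternal group. Sqle, squalene epoxidase, a rate-limiting step, had log2 fold changes of 0.74 ± 0.48 in MIA and 0.78 ± 0.41 in control offspring (adjusted p = 0.232 and 0.125) at levels of 1.44 to 2.91 CPM in MIA LPS, 0.526 to 2.48 in MIA saline, 1.14 to 2.21 in control LPS and 0.282 to 1.46 in control saline libraries. Cyp51, the lanosterol demethylase, was the lowest of the arm, at −0.10 ± 0.30 and −0.30 ± 0.25 in MIA and control offspring (adjusted p = 0.827 and 0.361). Msmo1 (0.34 and 0.20) and Nsdhl (0.20 and 0.40), which remove methyl groups, and the late enzymes Sc5d (0.33 and 0.13) and Dhcr7 (0.28 and 0.11) lay between 0 and 0.5 on the same scale. Dhcr7 had 9.64, 2.75 and 8.91 CPM in MIA LPS and 7.36, 5.22, 5.13, 6.33 and 5.20 CPM in MIA saline libraries; the library MIA LPS 2 was the lowest of all, and without it the log2 fold change was 0.67 (adjusted p = 0.021).

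**Figure D3:**
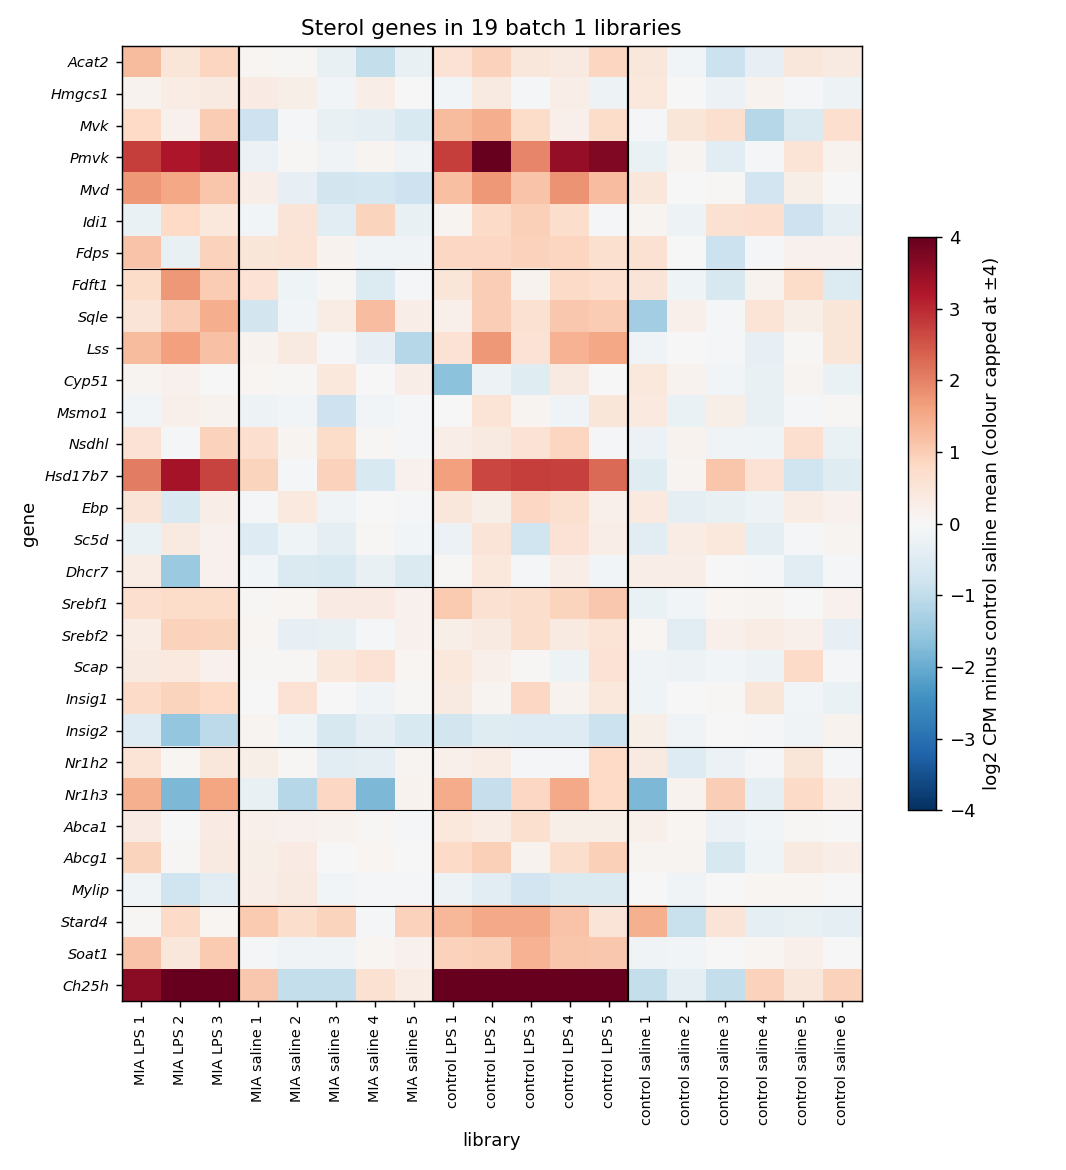
Log2 CPM of each of the 30 genes (rows, by role) in each of 19 batch 1 libraries (columns), as the difference from the control saline mean; red is higher, blue lower, and the colour is capped at ±4. The rows of Pmvk, Hsd17b7 and Ch25h are red in every LPS library, and Insig2 is blue in every LPS library.

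Of the 5 genes of SREBP control, 3 rose and 1 fell in MIA offspring, and 2 rose and 1 fell in control offspring. That is 80% called in MIA and 60% in control offspring, where 39.1% and 44.6% of all genes were called. Srebf2, which encodes SREBP2, had 18.4, 28.6 and 27.5 CPM in MIA LPS libraries, against 15.7, 11.8, 12.2, 14.3 and 16.9 CPM in MIA saline libraries. It had 17.7, 19.4, 24.2, 19.3 and 21.6 CPM in control LPS libraries, against 11.1 to 18.5, with a median of 16.3 CPM in control saline libraries. The MIA groups did not overlap and the control groups did. The log2 fold change was 0.81 ± 0.19 (adjusted p = 0.000976) in MIA offspring and 0.42 ± 0.16 (adjusted p = 0.0291) in control offspring, where the call held in 23 of 32 alternative settings. Srebf1, which encodes SREBP1, the regulator of fatty acid synthesis and itself an LXR target, had 20.8, 21.3 and 21.5 CPM in MIA LPS libraries, against 13.4, 13.7, 16.3, 16.3 and 14.5 CPM in MIA saline libraries. Control LPS libraries had 26.8, 19.8, 21.3, 24.0 and 27.5 CPM of Srebf1, against 10.8 to 14.6, with a median of 13.2 CPM in control saline libraries. No library overlapped, with log2 fold changes of 0.51 ± 0.15 (adjusted p = 0.00661) in MIA and 0.89 ± 0.12 (adjusted p = 1.37e-06) in control offspring. The table counts whole genes, so the promoter window of Srebf1 printed above, which is 1 of several starts, cannot be tied to these counts.

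The 2 INSIG genes went opposite ways in MIA offspring. Insig1, itself an SREBP2 target, had 20.4, 22.5 and 20.8 CPM in MIA LPS libraries, against 12.01, 18.1, 12.1, 10.7 and 12.3 CPM in MIA saline libraries. It had 15.2, 13.0, 21.3, 13.3 and 15.9 CPM in control LPS libraries, against 9.91 to 16.8, with a median of 11.6 CPM in control saline libraries. The MIA groups did not overlap, with a log2 fold change of 0.70 ± 0.19 (adjusted p = 0.00525); this call was lost, at an adjusted p of 0.0769, when the batch 2 library was kept without a batch term. In control offspring the groups overlapped and the log2 fold change of 0.37 ± 0.16 did not pass (adjusted p = 0.0687).

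Insig2 had 15.1, 7.23 and 10.3 CPM in MIA LPS libraries, against 23.0, 19.1, 13.7, 16.8 and 14.1 CPM in MIA saline libraries. In control LPS libraries it had 12.8, 15.4, 14.8, 14.9 and 11.9 CPM, against 19.3 to 25.1, with a median of 20.97 CPM in control saline libraries. All control LPS libraries were below all control saline libraries, while MIA LPS 1 lay within the MIA saline range. Insig2 fell, with a log2 fold change of −0.67 ± 0.21 (adjusted p = 0.0112) in MIA and −0.63 ± 0.17 (adjusted p = 0.00323) in control offspring. Without MIA LPS 2 the MIA value was −0.45 (adjusted p = 0.0906). Scap, the SREBP carrier, averaged 18.6 ± 1.52 CPM in MIA LPS, 17.9 ± 3.22 in MIA saline, 17.7 ± 3.83 in control LPS and 15.5 ± 4.95 in control saline libraries, and was not called (adjusted p = 0.858 in MIA and 0.407 in control offspring).

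Neither LXR receptor was called. Nr1h2 (LXR beta) averaged 23.2 ± 3.95 CPM in MIA LPS and 17.1 ± 3.40 in MIA saline libraries, and 21.6 ± 5.88 in control LPS and 18.4 ± 4.78 in control saline libraries, with log2 fold changes of 0.44 ± 0.22 and 0.23 ± 0.19 that did not pass (adjusted p = 0.121 in MIA and 0.336 in control offspring). Nr1h3 (LXR alpha) had 0 to 1.32 CPM in MIA LPS, 0 to 0.743 in MIA saline, 0.120 to 1.27 in control LPS and 0 to 0.834 in control saline libraries, at most 23 counts in a batch 1 library, and was not called (adjusted p = 0.248 in MIA and 0.375 in control offspring).

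Abca1, which loads cholesterol onto lipid-poor apolipoproteins, was the most abundant member in CPM. It had 515, 406 and 512 CPM in MIA LPS libraries, against 475, 460.2, 453, 424 and 394 CPM in MIA saline libraries. It had 556, 502, 645, 479 and 481 CPM in control LPS libraries, against 351 to 469, with a median of 419 CPM in control saline libraries. The control LPS libraries lay above all control saline libraries, a log2 fold change of 0.37 ± 0.12 (adjusted p = 0.0111), and the MIA groups overlapped, a log2 fold change of 0.12 ± 0.14 (adjusted p = 0.551). The MIA overlap came from MIA LPS 2 alone, and without it the MIA value was 0.22 (adjusted p = 0.252). Without control LPS 3, the highest library, the control value was 0.26 (adjusted p = 0.0707).

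Abcg1, which passes cholesterol to lipoprotein particles, had 292, 163 and 201 CPM in MIA LPS libraries, against 184, 196, 157, 166 and 157 CPM in MIA saline libraries. It had 265, 302, 171, 257 and 302 CPM in control LPS libraries, against 100.1 to 199, with a median of 168 CPM in control saline libraries. Both pairs of groups overlapped, each through 1 LPS library, MIA LPS 2 and control LPS 3. The log2 fold change was 0.35 ± 0.20 (adjusted p = 0.177) in MIA and 0.70 ± 0.17 (adjusted p = 0.0014) in control offspring. The MIA value was 0.53 (adjusted p = 0.0507) without MIA LPS 2 and 0.09 (adjusted p = 0.793) without MIA LPS 1, the highest library.

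Mylip moved the other way. It had 135, 86.2 and 112 CPM in MIA LPS libraries, against 179, 193, 138, 145 and 143 CPM in MIA saline libraries. It had 132, 108, 87.9, 101 and 100.4 CPM in control LPS libraries, against 136 to 160.1, with a median of 149.9 CPM in control saline libraries. Every LPS library was below every saline library of its maternal group. Mylip fell, with a log2 fold change of −0.52 ± 0.16 (adjusted p = 0.00889) in MIA and −0.50 ± 0.13 (adjusted p = 0.00213) in control offspring; without MIA LPS 2 the MIA value was −0.37 (adjusted p = 0.0712). Of the 4 LXR target genes (Abca1, Abcg1, Mylip and Srebf1), 1 rose and 1 fell in MIA offspring, and 3 rose and 1 fell in control offspring. That is 50% called in MIA and 100% in control offspring, where 39.1% and 44.6% of all genes were called.

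Ch25h gave the largest log2 fold change of the 30 genes. It had 3.21, 10.3 and 16.6 CPM in MIA LPS libraries, against 0.438, 0, 0, 0.275 and 0.200 CPM in MIA saline libraries, from 432 and 12 counts in all. It had 4.44, 13.0, 10.1, 11.7 and 13.9 CPM in control LPS libraries, against 0 to 0.387, with a median of 0.150 CPM in control saline libraries, from 743 and 15 counts in all. No LPS library was near a saline library, of which 2 in each maternal group had no count. The fitted log2 fold change was 5.77 ± 0.67 (adjusted p = 9.23e-07) in MIA and 5.91 ± 0.58 (adjusted p = 7.51e-08) in control offspring, and it rests on few saline counts. Each saline library held at most 5 counts, under the filter's minimum count of 10. Ch25h was thus tested only because its LPS libraries were high, so its rank and adjusted p are descriptive.

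Soat1, which makes cholesteryl esters for lipid droplets, had 173, 108 and 162 CPM in MIA LPS libraries, against 75.5, 71.0, 71.8, 83.6 and 89.4 CPM in MIA saline libraries. It had 148, 152, 206, 172 and 167 CPM in control LPS libraries, against 71.4 to 90.6, with a median of 78.2 CPM in control saline libraries. All LPS libraries were above all saline libraries, with MIA LPS 2 the lowest of them. Soat1 rose by a log2 fold change of 0.92 ± 0.15 (adjusted p = 1.47e-05) in MIA and 1.10 ± 0.12 (adjusted p = 5.3e-08) in control offspring. Stard4, a carrier of cholesterol between membranes, had 0.761, 1.37 and 0.792 CPM in MIA LPS libraries, against 1.67, 1.29, 1.49, 0.688 and 1.53 CPM in MIA saline libraries. It had 2.06, 2.40, 2.39, 1.81 and 1.12 CPM in control LPS libraries, against 0.334 to 2.20, with a median of 0.563 CPM in control saline libraries. The groups overlapped in both comparisons, with log2 fold changes of −0.44 ± 0.54 (adjusted p = 0.555) in MIA and 1.12 ± 0.43 (adjusted p = 0.0357) in control offspring, and the control call held in 17 of 31 alternative settings.

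Over all 19 SREBP2 target genes (the 17 enzymes with Insig1 and Stard4), 8 rose and none fell in each maternal group, 42.1% of the list, where 39.1% of all genes were called in MIA and 44.6% in control offspring. Their median log2 fold change was 0.52 in MIA and 0.55 in control offspring. Averaged over the list in each library, as the log2 difference from the control saline mean, the SREBP2 targets stood at 0.74 to 0.90 in MIA LPS, −0.14 to 0.11 in MIA saline, 0.53 to 1.05 in control LPS and −0.10 to 0.12 in control saline libraries. The same average over the 4 LXR targets was −0.01 to 0.44 in MIA LPS, 0.01 to 0.24 in MIA saline, 0.18 to 0.52 in control LPS and −0.20 to 0.12 in control saline libraries. LPS libraries were apart from saline libraries on the SREBP2 list in both maternal groups, and on the LXR list in control offspring; on the LXR list the MIA groups overlapped through 1 library, MIA LPS 2, at −0.01, while MIA LPS 1 and 3 stood at 0.44 and 0.25. The median log2 fold change of the 4 LXR targets in MIA offspring was 0.23, and 0.37 without MIA LPS 2. The SREBP2 average rests partly on Pmvk and Hsd17b7: without them it was 0.45 to 0.64 in MIA LPS, −0.16 to 0.12 in MIA saline, 0.34 to 0.78 in control LPS and −0.14 to 0.18 in control saline libraries. These averages describe lists chosen with results known and carry no test.

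**Figure D4:**
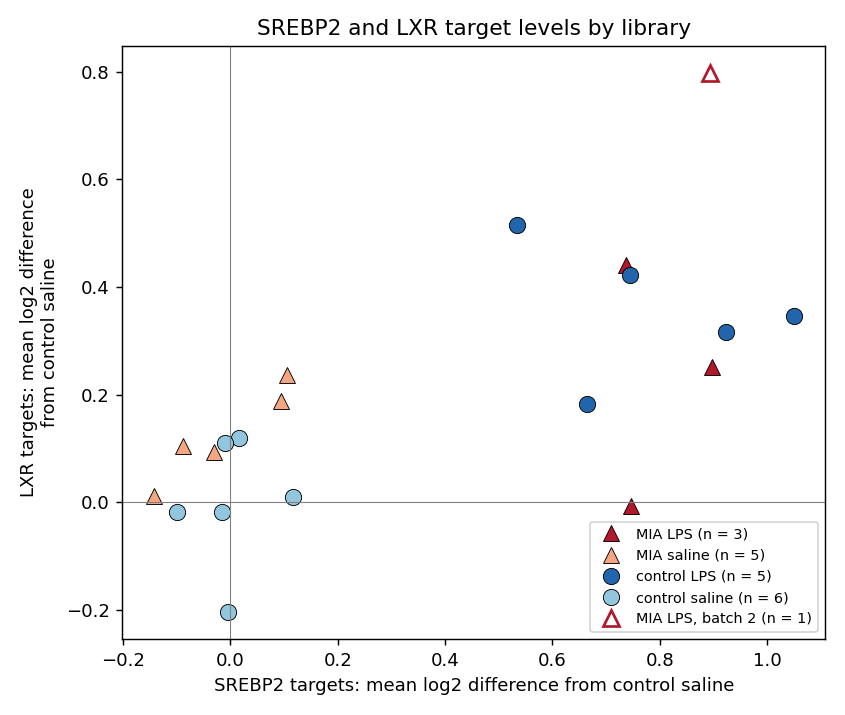
Mean log2 difference from control saline over 19 SREBP2 targets (horizontal) and 4 LXR targets (vertical), 1 point a library; triangles are MIA and circles control offspring, dark LPS and light saline, and the open triangle is the batch 2 library. LPS libraries lie right of all saline libraries, while on the vertical axis MIA LPS and MIA saline libraries overlap.

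No member passed the test between maternal groups. For the difference of the LPS responses, MIA minus control, 0 of 30 members were called, where 0% of all genes were called by edgeR; DESeq2 and limma-voom called 0 members too. At an unadjusted p under 0.05 the difference held for 1 member, Stard4, and for 3.33% of all genes. Its difference was −1.56 ± 0.69 on the log2 scale (adjusted p = 1.0). The other members' differences lay between −0.39 for Ebp and 0.69 for Fdft1, and 15 of all 30 were positive. For the 4 LXR targets all differences were negative, between −0.02 for Mylip and −0.37 for Srebf1, none of them called. Without MIA LPS 2 the difference of Mylip was 0.14, so the shared sign rests on that library, and the median of the 4 was −0.16, against −0.30 with it. For MIA against control after saline, 0 members were called, where 0% of all genes were called, and 0 had an unadjusted p under 0.05, against 2.82% of all genes; 0 members did not overlap, where 0.4% of genes did not. For MIA against control after LPS, 0 members were called, where 0% of all genes were called, and 0 did not overlap, where 2.68% of genes did not; Insig1 was the 1 member with an unadjusted p under 0.05, against 5.6% of all genes. Its log2 difference was 0.44 ± 0.19 (adjusted p = 0.871). The interval of the difference of responses was −0.93 to 0.80 for Pmvk, −0.41 to 0.51 for Hmgcs1 and −2.53 to 2.25 for Ch25h. Differences within these intervals remain compatible with the data. Calls were adjusted over all genes tested, so the intervals do not mark the limit of what could go uncalled.

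The other genes of these pathways were counted from 3 lists. Of 10 genes of fatty acid synthesis, the pathway set by SREBP1, 4 rose and 2 fell in MIA offspring, and 3 rose and 2 fell in control offspring. That is 60% called in MIA and 50% in control offspring, where 39.1% and 44.6% of all genes were called. The largest called changes were Fasn, fatty acid synthase, at 64.0 CPM in MIA LPS and 18.7 in MIA saline libraries and 50.9 in control LPS and 18.3 in control saline libraries, with log2 fold changes of 1.77 ± 0.22 (adjusted p = 5.86e-07) and 1.48 ± 0.19 (adjusted p = 5.49e-07), and Fads2, a desaturase of polyunsaturated fatty acids, which fell, with values of −2.06 ± 0.56 (adjusted p = 0.00429) and −2.07 ± 0.46 (adjusted p = 0.000578) in MIA and control offspring. Of 10 other genes of sterol enzymes and SREBP processing, 2 rose and none fell in MIA offspring, and 3 rose and 1 fell in control offspring. The 20% called in MIA and 40% called in control offspring were below the shares of all genes. Tmem97, a sterol-binding membrane protein, had log2 fold changes of 1.22 ± 0.27 (adjusted p = 0.000676) in MIA and 1.35 ± 0.23 (adjusted p = 2.18e-05) in control offspring. Lbr, which carries a sterol reductase, had values of 0.84 ± 0.16 (adjusted p = 0.000145) and 0.68 ± 0.14 (adjusted p = 0.000171).

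Of 18 listed genes of sterol transport, storage and oxidation, 14 passed the filter, and 6 rose and 3 fell in each maternal group. That is 64.3% of those tested, where 39.1% of all genes were called in MIA and 44.6% in control offspring. Soat2, the second cholesterol esterification enzyme, averaged 13.4 CPM in MIA LPS and 1.01 in MIA saline libraries, and 11.9 in control LPS and 1.13 in control saline libraries. Its log2 fold change was 3.68 ± 0.35 (adjusted p = 4.4e-09) in MIA and 3.41 ± 0.30 (adjusted p = 7.14e-10) in control offspring. Plin2, a coat protein of lipid droplets, averaged 105 CPM in MIA LPS and 11.0 in MIA saline libraries, and 106 in control LPS and 10.2 in control saline libraries. Its log2 fold change was 3.26 ± 0.21 (adjusted p = 9.18e-12) in MIA and 3.37 ± 0.18 (adjusted p = 2.73e-13) in control offspring.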

How the data were processed

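The authors deposited estimated counts per gene, covering 21 libraries and 55487 genes. The submitters' processing notes list RSEM, STAR and DESeq2 with no version; neither genome build nor strand setting is given in the sources used here. Non-whole values made up 6.27%, and every value was rounded. Libraries were prepared from sorted cells, per the labels. No molecular identifiers are named in the sources used here, so counts are not independent molecules.

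The members and lists were chosen with earlier results of these data known. All 30 members are named; of each other pathway list, the 2 largest called changes are named. Counts were fitted with edgeR 4.0.16 (R 4.3.3; TMM scaling; filterByExpr with a minimum count of 10; robust quasi-likelihood test) with 1 mean per maternal group and treatment and a batch term, over 20 libraries without the one titled excluded, with 15 residual degrees of freedom. Batch 2 holds 1 library, so the batch term takes up its values and contrasts rest on batch 1. Adjusted p-values (Benjamini-Hochberg) run over 14741 genes, threshold 0.05. Standard errors were derived from the fold change and F. Nothing says that libraries are separate animals beyond their labels, so the p-values reflect spread among libraries, which may be partly technical. No 2 replicates agreed within sampling noise (lowest chi-square per degree of freedom 9.58). The test was run on simulated counts, with changes set only in control LPS libraries and only in genes above a minimum mean count. That run does not show how well changes are found in low-count members or in MIA offspring.

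Per-kilobase levels use exon lengths of GENCODE release M21 (GRCm38); 346 identifiers had no match in the table of gene names. Promoter windows came from RefSeq, and the letters searched for LXR were written with the Abca1 window in view. Alternatives were other scalings and filters, DESeq2 1.42.0, limma-voom (limma 3.58.1), replicate blocks, the 2 unusual libraries kept or left out, and each library left out in turn, 32 in all; 1 alternative, the SREBP2 average without Pmvk and Hsd17b7, was added after the data were seen.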

Additional observations from a re-analysis of the deposited data

Results flagged for a closer look

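Among 90 combinations of a gene and a group with 5 or 6 libraries, 7 held a library whose gap to its nearest neighbour was large for the range of the group by Dixon's criterion; chance flags about 1 in 20. All 7 were saline libraries, but most combinations checked were saline too. Of the LPS groups only control LPS could be checked, because MIA LPS held 3 libraries in batch 1. In MIA saline libraries, replicate 2 had 15.2 CPM of Ebp and 18.1 CPM of Insig1, both above the rest of the group, and replicate 3 had 8.44 CPM of Msmo1, below the rest. In control saline libraries, replicate 4 had 16.8 CPM of Insig1, replicate 6 had 5.11 CPM of Lss, and replicate 5 had 5.25 CPM of Nsdhl and 25.5 CPM of Scap, each above the rest. Without control saline 5 the log2 fold change of Scap in control offspring was 0.39 (adjusted p = 0.0374), and without control saline 4 that of Insig1 was 0.49 (adjusted p = 0.0182); both genes were not called with those libraries in.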

How the results depend on the processing

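Over the 32 alternatives, the members called numbered 13 to 15 in MIA offspring, against 14, and 11 to 18 in control offspring, against 16; for the other 3 comparisons every alternative that gave a value called 0. No called member changed sign. In MIA offspring 10 of the 14 calls held in every alternative, and Insig1, Insig2, Mvk and Mylip were lost in at least 1. In control offspring 11 of the 16 held, and Abca1, Ebp, Mvk, Srebf2 and Stard4 were lost in at least 1. Leaving out 1 library gave 13 to 14 calls in MIA and 11 to 16 in control offspring, the lowest without control LPS 3. The all-gene median moved by less than 0.1 on the log2 scale under each scaling. Without Pmvk and Hsd17b7 the mean SREBP2 average was 0.5437 in MIA LPS and 0.5464 in control LPS libraries.

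Replicate numbers recur across groups. Over 24 same-numbered pairs the median correlation was 0.03 and 5 were over 0.1. Over 109 pairs with different numbers it was −0.009 and 10 were over 0.1. Of 18 libraries, 7 correlated best with their own number. Over 10 pairs that share the second number of the labels' identifiers the median was 0.04 and 1 was over 0.1. Over the other 123 pairs it was −0.008 and 14 were over 0.1. Whether libraries are paired was not tested. With the replicate block, 15 members were called in each maternal group, against 14 in MIA and 16 in control offspring, and 0 for the difference of responses. With the second number of the labels' identifiers as a block, 13 and 14 were called in MIA and control offspring, and that fit gives no contrast between maternal groups. Low counts limit Ch25h, Nr1h3 and Stard4 most.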

Other observations

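The MIA LPS library of batch 2 held 11.4 M counts (M, 1e+06) on 12264 genes, with 27 members detected. For 8 of the 30 members it lay within the range of the MIA LPS libraries of batch 1, for 15 above and for 7 below. Its Ch25h count was 1035, against 38 to 251 in the MIA LPS libraries of batch 1. Its average over the SREBP2 targets was 0.89 and over the LXR targets 0.80. The MIA saline library titled as excluded held 5.29 M counts, and lay within the range of the other MIA saline libraries for 22 of the 30 members, above for 4 and below for 4.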
